A study of Homo sapiens with 9 samples.

Results

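The cultures that carry the number 2 in their labels were set against those that carry the number 1, shape by shape, to ask which mRNAs were higher or lower in number 2 on every plate. A gene was counted as a member when its log2 level in number 2 minus that in number 1 had the same sign on flat, concave and convex plates. Of 22442 genes with enough counts, out of 62710 gene identifiers in the table, 8634 (38.5%) were members. Of these, 4236 (18.9% of the genes tested) were higher in number 2 on all 3 shapes, and 4398 (19.6%) were lower on all 3. The members were selected on these log2 differences, which are also the values described here, so they support no further claim. The shares above are the background for the counts over 3 shapes that follow. Counts over 2 shapes or under another scaling of the libraries have their own background, which is given below.

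All cultures were wild-type cells of H9, a widely used line of human embryonic stem cells. They were kept for 72 h in pluripotency medium on silicone (PDMS) plates coated with Matrigel, a basement membrane extract. Medium N2B27 with the inhibitors SB431542 and LDN followed for 48 h, which blocks signalling from TGF-beta and BMP receptors (dual SMAD inhibition) and steers the cells to neuroepithelium. In the last 24 h, still under both inhibitors, the plate stayed flat, which the labels call control, or was bent to a concave or a convex form. Each shape has libraries numbered 1, 2 and 3, and the 6 libraries numbered 1 and 2 enter the comparison. Nothing in the labels says what the number stands for or that libraries came from separate cultures, so the spread between them may be technical.

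When pluripotent cells lose BMP and TGF-beta signals, they adopt an anterior neural fate by default. E-cadherin, which joins cells of the pluripotent epithelium, gives way to N-cadherin in neuroepithelium, and homeobox genes of the forebrain and eye field, among them SIX3, LHX2 and PAX6, are switched on in succession. Transcription factors shared by both states, such as SOX2 and OTX2, stay on throughout.

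The libraries numbered 1 and 2 held between 49420082 and 64763412 counts, and flat 2 was the smallest. Within a shape, numbers 1 and 2 differed by more than counting noise, with a chi-square per degree of freedom of 133.1 for flat, 53.5 for concave and 19.7 for convex plates. The pair on flat plates stood apart: 1151 genes (5.13%) differed by more than 1 on the log2 scale, against 341 (1.52%) in the concave pair and 68 (0.303%) in the convex pair. In the flat pair the difference followed transcript length, with a median of 0.17 for transcripts of at most 1177 bases and -0.30 for those of at least 3958 bases. In the other pairs those medians lay between -0.038 and 0.0073. Across genes, the differences correlated with r = 0.0584 between flat and concave, 0.283 between flat and convex and 0.433 between concave and convex pairs, as a description of 22442 genes that share 6 libraries.

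**Figure D1:**
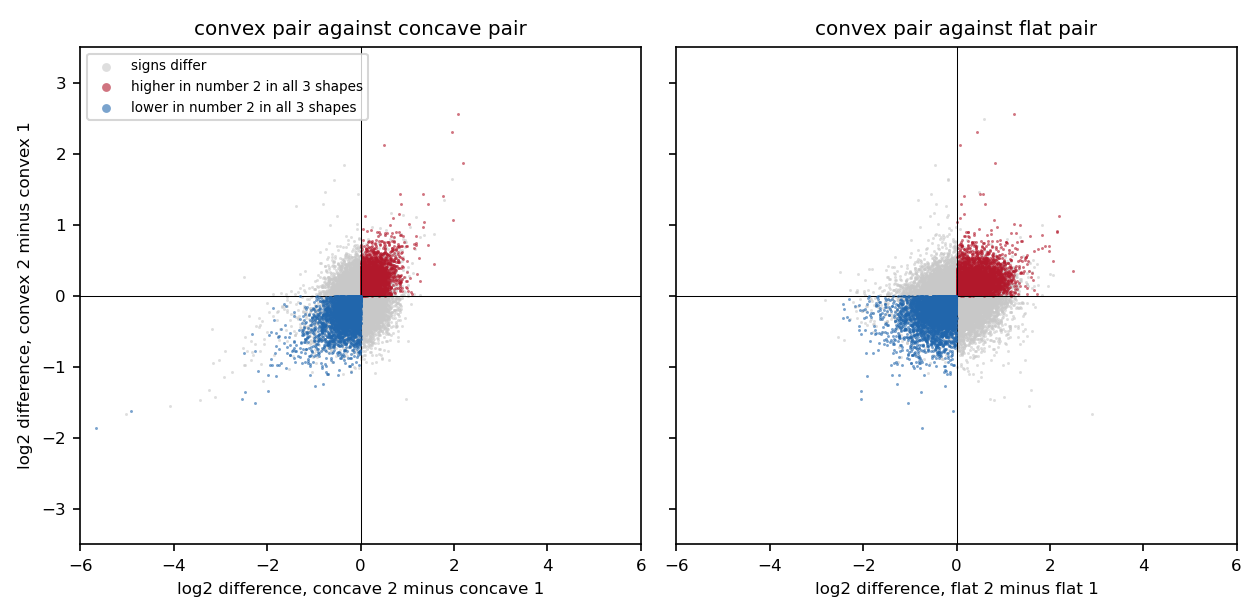
Log2 difference of each of the 22442 tested genes, number 2 minus number 1, in the convex pair (vertical axes) against the concave pair (left) and the flat pair (right). Red points are the 4236 genes higher in number 2 on all 3 shapes, blue points the 4398 that were lower on all 3, and grey points had differing signs. The horizontal spread is wider in the flat pair (SD 0.518) and the concave pair (SD 0.359) than the vertical spread of the convex pair (SD 0.267).

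The edgeR quasi-likelihood test with plate shape as a block called 0 genes at an adjusted p under 0.05 (0% of 22442), with 2343 at an unadjusted p under 0.05, of which 1083 were higher and 1260 lower in number 2. DESeq2 called 139 (42 higher, 97 lower; it gave no adjusted p for 4786 genes), limma voom 0, and voom with a weight for each library 571 (234 higher, 337 lower). The number of calls turned on single libraries. With the shape block, edgeR called 903 without flat 1 and 989 without flat 2 (432 higher, 1.87% of 23153 genes tested, and 557 lower, 2.41%), and leaving out concave 1, concave 2, convex 1 or convex 2 gave 17, 41, 7 and 5 calls. Leaving out either flat library removes the flat pair from the contrast, and without the block each of the 6 reduced sets gave 0 calls. Of the 989 genes called without flat 2, 322 of the 432 higher and 408 of the 557 lower ones had the same sign on all 3 shapes. In the text below, a gene named as called passed this test without flat 2, and that call is not independent of how the members were chosen.

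Over 2 shapes, 7093 of the 22442 tested genes were higher and 7151 lower without the flat pair, and 6799 and 6865 without the concave pair. Both directions together made up 63.5% and 60.9% of the tested genes, which is the background for list counts over 2 shapes. With library size alone in place of TMM scaling, the share of members that were higher in number 2 was 37.7% in place of 49.1%. In that setting 3272 genes were higher and 5397 lower on all 3 shapes. The counts were 4270 and 4300 with DESeq2 size factors, and 3510 and 5135 with upper-quartile factors. All levels below are CPM, counts relative to the TMM-scaled library size, given in the order flat, concave, convex, and differences are of log2(CPM + 0.5), as mean ± SD over the 3 pairs (n = 3). CPM is not divided by transcript length, so levels are compared between libraries and not between genes. Gene positions are on GRCh38 (GENCODE v29). In bulk RNA, fewer cells of a kind and less RNA per cell cannot be told apart.

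Genes of the anterior neural plate and eye field were mostly higher in number 2. Of 14 tested genes on this list, 10 were higher on all 3 shapes and 0 were lower on all 3, with a median difference of 0.46 (0.51 in the flat, 0.20 in the concave and 0.37 in the convex pair), where the median of all tested genes was -0.008. Over the 2 other shapes 11 were higher and 0 lower without the flat pair, and 12 and 0 without the concave pair. The count on 3 shapes was 9 with DESeq2 size factors or upper-quartile factors and 7 with library size alone. The 6 members called without flat 2 were SIX3, LHX2, HESX1, PAX6, FEZF2 and SFRP2, and no gene of this list was called lower.

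SIX3 (ENSG00000138083, chromosome 2, 44941898 to 44946077), a homeobox repressor of posterior fate in the forebrain and eye field, stood at 115, 114 and 162 CPM in number 1 and at 163, 188 and 205 CPM in number 2. Every library numbered 2 was above every library numbered 1, with convex 1 and flat 2 almost level, and the difference was 0.52 ± 0.19. PAX6 (ENSG00000007372, chromosome 11, 31784779 to 31818062), a paired-box regulator of neuroectoderm and eye, gave 1.71, 2.93 and 3.34 CPM in number 1 and 4.67, 6.57 and 7.26 CPM in number 2. Its 3 differences were among the most even of the list (1.09 ± 0.12), and the numbers did not overlap. LHX2 (ENSG00000106689, chromosome 9, 124001670 to 124033301), a LIM-homeobox gene of the eye field and cortex, stood at 0.906, 0.718 and 1.78 CPM in number 1 and at 1.95, 4.27 and 4.30 CPM in number 2, a difference of 1.28 ± 0.61. For LHX2 too the numbers did not overlap, and flat 2 was the lowest of the libraries numbered 2. HESX1 (ENSG00000163666, chromosome 3, 57197838 to 57227606), a repressor of the anterior neural plate, ranged from 45.8 to 52.3 CPM in number 1 and from 65.5 to 80.1 CPM in number 2 (0.54 ± 0.20). SFRP2, a secreted WNT-binding protein, FZD5, a WNT receptor of the eye field, and FEZF1, a forebrain zinc finger repressor, differed by 0.54 ± 0.39, 0.22 ± 0.15 and 0.16 ± 0.06. SFRP2 and FZD5 had differing signs with library size alone. RAX and FEZF2, 2 more regulators of the early forebrain, stayed under 2 CPM in every library. OTX2 was higher on all 3 shapes by only 0.08 ± 0.08 and had differing signs under each of the 3 other scalings. Signs differed for OTX1, EMX2, SP8 and SFRP1. The summed CPM of the list, in which SFRP1 held the most counts, was 3324 to 3467 in number 1. It was 3014 in flat 2, 3842 in concave 2 and 4084 in convex 2, so the sum overlapped between the numbers. In 8 of the 14 tested genes every library numbered 2 was above every one numbered 1 (7.25% of all tested genes).

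**Figure D2:**
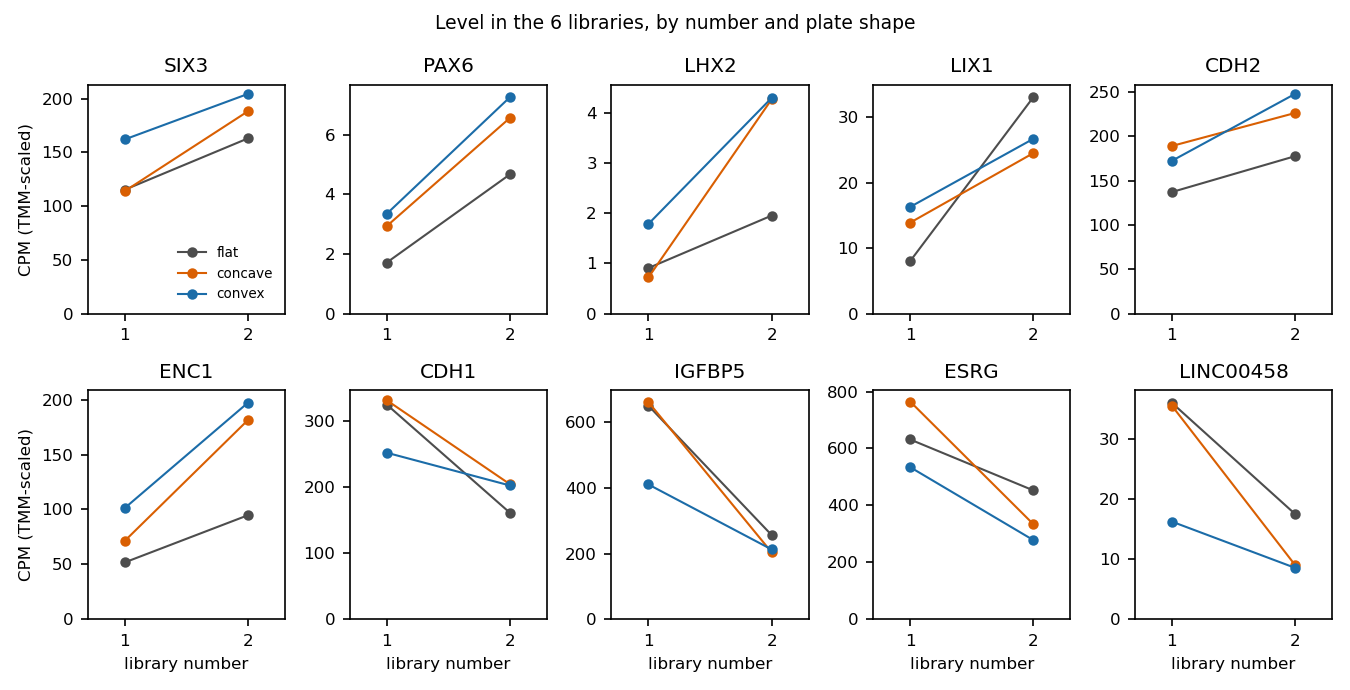
CPM (TMM-scaled, linear axis from 0) of 10 genes in the 6 libraries, number 1 on the left and number 2 on the right of each panel, with a line joining the libraries of one plate shape. In SIX3, PAX6, LHX2, LIX1, CDH2 and ENC1 all 3 lines go up, and in CDH1, IGFBP5, ESRG and LINC00458 all 3 go down; CDH2, ENC1 and LINC00458 overlap between the numbers.

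General neuroectoderm genes were more divided: 12 of 27 were higher and 3 lower on all 3 shapes, with a median of 0.14 (14 and 5 without the flat pair, 16 and 5 without the concave pair). LIX1 (ENSG00000145721, chromosome 5, 97091867 to 97142872), an mRNA found in early neural tissue, stood at 8.0, 13.9 and 16.3 CPM in number 1 and at 33.1, 24.5 and 26.7 CPM in number 2. The groups were well apart, and flat plates held both the lowest and the highest library (1.16 ± 0.71). NR2F2 (ENSG00000185551, chromosome 15, 96325938 to 96340263), an orphan nuclear receptor, gave 0.837, 1.27 and 1.62 CPM against 5.44, 2.63 and 3.46 CPM (1.29 ± 0.75). ZIC1 (ENSG00000152977, chromosome 3, 147393422 to 147510293), a zinc finger factor of the neural plate and its border, gave 5.86 to 8.71 CPM in number 1 and 11.9 to 14.8 CPM in number 2 (0.84 ± 0.32). These 3 genes and PTN, a secreted growth factor of neural progenitors (0.78 ± 0.53), were called without flat 2. POU3F2, a POU factor of neural progenitors (0.53 ± 0.08), FABP7, a fatty acid carrier of radial glia (0.36 ± 0.29), NES, the intermediate filament nestin (0.22 ± 0.25), and MSI1, an RNA-binding protein of progenitors (0.11 ± 0.04), were also higher on all 3 shapes. For NES the sign differed between shapes with upper-quartile factors.

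Other neural genes did not follow this direction. SOX1, a SoxB1 factor that marks neuroectoderm, stood at 4.98, 2.48 and 3.49 CPM against 3.31, 1.501 and 2.05 CPM, which is lower within each shape by a similar step (-0.58 ± 0.06) but overlaps between the numbers. SOX2, the SoxB1 factor of both pluripotent and neural cells, differed by -0.04 ± 0.06, with signs that varied between shapes. DLK1, an imprinted gene for a Notch ligand-like protein, was at 1843 CPM in flat 2 and between 591 and 899 CPM in the other 5 libraries. Of 12 tested early neuron genes 1 was higher and 4 lower on all 3 shapes, and the RNA-binding protein ELAVL3 (-0.95 ± 0.51) was the member called lower.

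Pluripotency genes showed no common direction: 4 of 21 were higher and 4 lower on all 3 shapes, with a median of -0.05 (10 and 6 without the flat pair, 5 and 6 without the concave pair). POU5F1 (ENSG00000204531, chromosome 6, 31164337 to 31180731), the core pluripotency factor OCT4, stood at 371, 250.2 and 249 CPM in number 1 and at 339, 210.2 and 231 CPM in number 2. It was lower in number 2 within each shape (-0.16 ± 0.08), the numbers overlapped, and its processed pseudogenes can take or give reads. NANOG, a partner of OCT4, had too few counts to be tested and reached at most 0.0523 CPM. ESRG (ENSG00000265992, chromosome 3, 54632122 to 54639857), a long non-coding RNA of pluripotent cells, stood at 632, 765 and 534 CPM in number 1 and at 453, 334 and 278 CPM in number 2. All libraries numbered 2 were below those numbered 1 (-0.87 ± 0.36). ESRG and DPPA2, a chromatin factor of pluripotent cells (-0.69 ± 0.40), were called lower without flat 2, and 4 listed genes, TDGF1, L1TD1, PRDM14 and ZSCAN10, were called higher. LINC00458, another non-coding RNA of stem cells that was outside the list, gave 36.0, 35.5 and 16.2 CPM in number 1 and 17.5, 9.01 and 8.53 CPM in number 2 (-1.28 ± 0.56), and flat 2 was just above convex 1. In contrast, the zinc finger gene ZSCAN10 (0.33 ± 0.06), the RNA-binding protein L1TD1 (0.41 ± 0.36) and the transcription factor gene VRTN (0.21 ± 0.02) were higher on all 3 shapes. TDGF1, the NODAL co-receptor CRIPTO, stood at 2.06, 1.14 and 2.41 CPM in number 1 and 1.80, 4.35 and 4.84 CPM in number 2, so its sign differed in the flat pair.

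E-cadherin and several epithelial junction genes were lower in number 2, and N-cadherin was higher. CDH1 (ENSG00000039068, chromosome 16, 68737225 to 68835548), which codes for E-cadherin, stood at 324, 331 and 251 CPM in number 1 and at 161, 204 and 202 CPM in number 2. The numbers did not overlap, and the step was largest on flat and smallest on convex plates (-0.67 ± 0.35). CDH2 (ENSG00000170558, chromosome 18, 27950966 to 28177446), which codes for N-cadherin, stood at 137, 189 and 172 CPM in number 1 and at 177, 226 and 248 CPM in number 2 (0.38 ± 0.13). It was higher within each shape, although flat 2 was below concave 1. Of 20 tested genes on the list, 8 were lower and 4 higher on all 3 shapes, and these counts held under each of the 4 scalings. Without the flat pair 8 were lower and 7 higher, and without the concave pair 10 and 4. Beside CDH1 the lower ones were P-cadherin CDH3 (-0.63 ± 0.55), the tight junction scaffold TJP3 (-0.45 ± 0.09), the epithelial splicing factor ESRP1 (-0.42 ± 0.38), the epithelial transcription factor GRHL2 (-0.41 ± 0.33), claudin CLDN7 (-0.39 ± 0.48), the polarity protein CRB3 (-0.32 ± 0.24) and SNAI1 (-0.36 ± 0.47), a repressor of CDH1. Higher beside CDH2 were claudin CLDN6 (0.34 ± 0.16), CDH6 (0.44 ± 0.28) and SNAI2 (0.50 ± 0.35), a relative of SNAI1 that averaged 0.299 CPM. The median of the list was -0.20 and came mostly from the flat pair (-0.53, against -0.02 and 0.01 in the concave and convex pairs). After a correction for transcript length the medians were -0.37, 0.0062 and 0.00087, and CDH1, CDH2 and TJP3 were the genes called without flat 2.

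DNA replication genes of S phase were mostly higher in number 2. Of 20 tested genes, 15 were higher and 0 lower on all 3 shapes, all 20 were higher in the concave and in the convex pair, and the medians were 0.21, 0.37 and 0.23. The counts were 14 and 0 under the other scalings and 16 and 0 after the length correction, and 15 and 0 without the concave pair. Summed over the list, number 1 held 2891 to 3344 CPM and number 2 held 3727 to 3999 CPM. Mitosis genes gave 3 higher and 4 lower of 18.

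MCM7 (ENSG00000166508, chromosome 7, 100092728 to 100101940), a subunit of the replicative helicase, stood at 409, 336 and 381 CPM in number 1 and at 599, 452 and 509 CPM in number 2 (0.46 ± 0.07). PCNA (ENSG00000132646, chromosome 20, 5114953 to 5126626), the sliding clamp of DNA polymerases, stood at 218, 174 and 203 CPM against 281, 243 and 249 CPM (0.38 ± 0.10). E2F1 (ENSG00000101412, chromosome 20, 33675683 to 33686404), the transcription factor that drives entry into S phase, stood at 62.6, 51.1 and 63.0 CPM against 83.8, 72.5 and 77.6 CPM (0.41 ± 0.10). In all 3 genes each library numbered 2 was above each numbered 1, and 10 of the 20 listed genes separated in this way (background 7.25% of tested genes above and 7.66% below). RRM2, the small subunit of ribonucleotide reductase, stood at 105, 97.3 and 123 CPM against 121, 153 and 161 CPM, with flat 2 just below convex 1 (0.42 ± 0.22). MCM7, PCNA, E2F1, RRM2, MCM5, CDC45 and UHRF1 were called without flat 2. UHRF1, which guides maintenance methylation, was higher by only 0.01 in the flat pair, and its sign differed under the other scalings. In the flat pair MCM2, MCM4, CCNE2, POLA1 and TYMS were lower in number 2.

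E2F factors bind a short palindrome-like element near the start of many S phase genes. The 3 promoters shown are from listed genes, and each holds at least 1 match. The windows are the 250 bases before the transcription start in RefSeq (GRCh38.p14), written 5′ to 3′ on the strand of the gene, with matches to TTTGGCGC, TTTGCCGC, TTTCGCGC or TTTCCCGC on either strand in capitals; matches on opposite strands can overlap.
MCM6, chr2:135876444-135876693, minus strand: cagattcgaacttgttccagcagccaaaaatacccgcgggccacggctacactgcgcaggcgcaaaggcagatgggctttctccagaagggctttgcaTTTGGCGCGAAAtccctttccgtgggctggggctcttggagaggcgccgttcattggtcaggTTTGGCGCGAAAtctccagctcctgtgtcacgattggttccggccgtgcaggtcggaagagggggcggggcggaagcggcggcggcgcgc
E2F1, chr20:33686386-33686635, minus strand: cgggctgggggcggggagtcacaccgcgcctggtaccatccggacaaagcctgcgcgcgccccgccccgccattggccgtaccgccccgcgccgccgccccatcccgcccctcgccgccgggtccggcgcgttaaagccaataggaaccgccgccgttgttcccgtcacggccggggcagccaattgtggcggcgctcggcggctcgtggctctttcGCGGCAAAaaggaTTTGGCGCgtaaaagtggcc
PCNA, chr20:5126623-5126872, minus strand: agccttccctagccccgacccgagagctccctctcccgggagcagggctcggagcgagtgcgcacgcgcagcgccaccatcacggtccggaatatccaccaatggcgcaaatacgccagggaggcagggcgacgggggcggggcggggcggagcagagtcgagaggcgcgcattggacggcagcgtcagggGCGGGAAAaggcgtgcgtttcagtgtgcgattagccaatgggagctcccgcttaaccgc
MCM6, another helicase subunit (0.26 ± 0.11), has 4 matches, which begin 152, 148, 90 and 86 bases before the start and overlap in pairs. E2F1 has matches that begin 33 and 20 bases before its start, and PCNA has 1 that begins 59 bases before. PCNA also has a window at chr20:5119959-5120208, not shown, with 0 matches. Of the 20 listed genes 17 were in the promoter table, and 10 of them had a match in at least 1 window, against 928 of all 27305 genes in the table (3.40%). By window, 979 of 35116 had a match (2.79%). Among genes higher on all 3 shapes 8 of 14 had one, and among those with differing signs 2 of 3. A match is a run of letters and says nothing of whether E2F was bound in these cultures.

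Histone genes, many of which are made in S phase, were higher on all 3 shapes in 5 of 14 tested cases and lower in 0. H2AZ1, a replication-independent variant of H2A, stood at 311, 250.2 and 251 CPM in number 1 and at 592, 300.2 and 342 CPM in number 2 (0.54 ± 0.34), with the highest level in flat 2. H2AC6, a clustered H2A gene, differed by 0.45 ± 0.17. Most clustered histone mRNAs have no poly-A tail, and poly-A selected libraries count only part of them.

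Genes that report on FGF and ERK signalling were higher in number 2 on the curved plates. Receptor tyrosine kinases of the FGF family signal through ERK, which switches on transcription factors of the ETV family and the feedback inhibitors SPRY and DUSP. Of 17 tested genes 5 were higher and 0 lower on all 3 shapes. In the concave and convex pairs 14 were higher in both, and the medians were 0.36 and 0.54, against -0.28 in the flat pair. With library size alone the counts over 3 shapes were 3 and 1.

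DUSP6 (ENSG00000139318, chromosome 12, 89347232 to 89353271), the phosphatase that inactivates ERK, stood at 1.41, 1.12 and 2.07 CPM in number 1 and at 2.89, 6.88 and 8.88 CPM in number 2. No library overlapped, and the step was smallest on flat plates (1.63 ± 0.71). IL17RD (ENSG00000144730, chromosome 3, 57089982 to 57170306), the FGF feedback inhibitor SEF, stood at 3.12, 4.32 and 6.01 CPM against 5.24, 10.1 and 10.3 CPM (0.84 ± 0.25), with flat 2 below convex 1. SPRY4, an inhibitor of the same pathway, stood at 8.05, 5.79 and 10.3 CPM in number 1 and at 4.30, 21.1 and 26.8 CPM in number 2, so that flat 2 was the lowest of the 6 libraries while concave 2 and convex 2 were the highest. ETV5 had the same layout, with 2.98, 2.47 and 4.26 CPM against 2.59, 10.9 and 14.3 CPM. The ligand FGF8 (ENSG00000107831, chromosome 10, 101770130 to 101780369), which is made at the anterior neural border and at the midbrain-hindbrain boundary, stood at 4.53, 4.35 and 4.50 CPM in number 1 and at 12.6, 7.21 and 8.04 CPM in number 2 (0.94 ± 0.39). Its libraries numbered 1 were nearly level, and every library numbered 2 was above them. SPRY2, SPRY4, DUSP4, DUSP6, ETV4, ETV5 and IL17RD were called higher without flat 2.

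**Figure D3:**
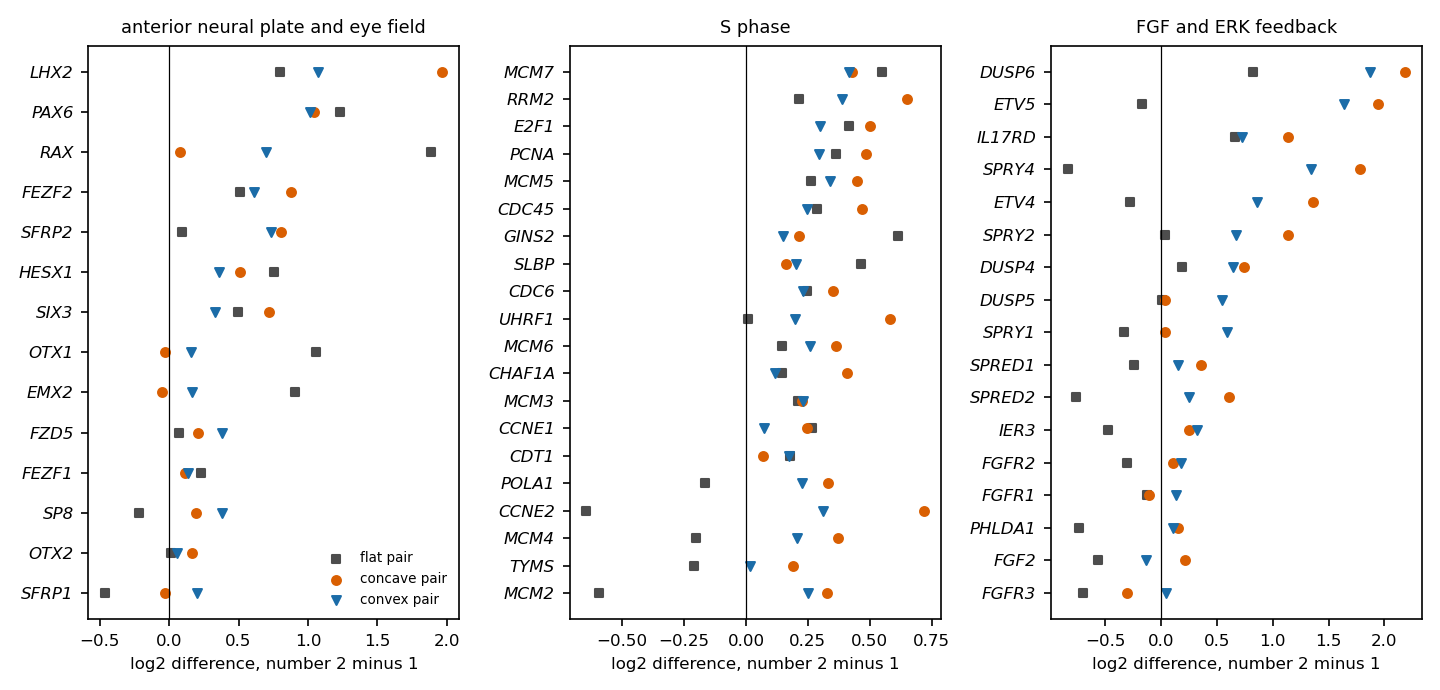
Log2 difference, number 2 minus number 1, of each tested gene of the anterior neural, S phase and FGF/ERK feedback lists (rows) in the flat pair (squares), concave pair (circles) and convex pair (triangles). The S phase genes lie right of 0 in all concave and convex pairs, and the FGF/ERK genes have flat squares left of 0 in 12 of 17 rows.

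Smaller sets of signalling genes were mixed. In the WNT pathway 7 of 20 tested genes were higher and 2 lower on all 3 shapes (5 and 2 with library size alone): higher were the transcription factor LEF1 (0.61 ± 0.12) and the secreted inhibitors FRZB (0.60 ± 0.24) and SFRP2, and lower was the ligand WNT7B (-0.85 ± 0.30), all 4 called without flat 2. Under BMP blockade, ID3 (0.46 ± 0.33) and ID4 (0.33 ± 0.27), which are targets of BMP, and the BMP antagonist GREM1 (0.71 ± 0.50) were higher and the inhibitor SMAD6 (-0.36 ± 0.03) lower on all 3 shapes, out of 14 tested BMP genes. With library size alone ID3 and ID4 had differing signs, and 1 BMP gene was higher and 2 lower. Without flat 2, 5 of the 14 BMP genes were called higher (ID3, ID4, BMP2, BMP4 and GREM1) and 0 lower. In the Notch pathway 1 of 15 was higher, the effector HES1 (0.28 ± 0.27), and 4 lower, the receptor NOTCH1 (-0.37 ± 0.42), the ligand JAG1 (-0.23 ± 0.23), the glycosyltransferase MFNG (-0.37 ± 0.40) and the feedback gene NRARP (-0.18 ± 0.10). The count of lower Notch genes was 7 with library size alone, 6 with upper-quartile factors and 5 with DESeq2 size factors, against 1 higher each time. Of 15 genes of retinoid handling 4 were higher, among them the retinal reductase DHRS3 (0.33 ± 0.11), and 5 lower, among them the retinoic acid hydroxylase CYP26A1 (-0.36 ± 0.32). In the Hedgehog pathway the transducer SMO (0.32 ± 0.12) and the co-receptor GAS1 (0.26 ± 0.09) were higher, whereas the receptor PTCH1 (-0.40 ± 0.33), the co-receptor CDON (-0.65 ± 0.77) and the target GLI1 (-0.34 ± 0.24) were lower, of 11 tested. Of 8 NODAL pathway genes 0 had 1 sign on all 3 shapes, and 2 were lower with library size alone or upper-quartile factors.

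Of 16 chaperone genes 8 were higher in number 2 and 1 lower on all 3 shapes, while 7 had differing signs (5 higher and 1 lower with library size alone). HSPA5, the chaperone BiP of the endoplasmic reticulum, differed by 0.34 ± 0.14, and DNAJA1, a cytosolic co-chaperone, by 0.36 ± 0.09. HSPA8, the constitutive HSC70, stood at 1734, 1267 and 1584 CPM in number 1 and at 1823, 1825 and 2025 CPM in number 2, with a difference of 0.07 in the flat pair, and it had differing signs with library size alone. DNAJB1, a heat-inducible co-chaperone, was the member that was lower (-0.09 ± 0.04). Among ATF4 stress genes, 3 of 19 were higher and 8 lower on all 3 shapes; the higher ones were ATF4 itself (0.24 ± 0.20), ATF5 (0.13 ± 0.06) and the amino acid transporter subunit SLC3A2 (0.22 ± 0.16), and the lower ones included CEBPB (-0.51 ± 0.11), the glutathione-degrading enzyme CHAC1 (-0.38 ± 0.18) and the lipoprotein receptor VLDLR (-0.50 ± 0.29).

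Of 23 tested matrix genes 7 were lower in number 2 and 1 was higher on all 3 shapes. The count of lower genes was 13 with library size alone and 10 with upper-quartile factors. The shapes did not share a direction, with medians of -0.44 in the flat, -0.19 in the concave and 0.05 in the convex pair. In the convex pair 14 of the 23 were higher. Without flat 2, TNC and VCAN were called higher and COL5A2, COL6A2 and HSPG2 lower. The basement membrane genes HSPG2 for perlecan (-1.08 ± 1.18), NID1 for nidogen (-0.63 ± 0.75) and LAMA5 for a laminin chain (-0.35 ± 0.21) were lower, as was fibronectin FN1 (-0.32 ± 0.33). HSPG2 stood at 30.6 CPM in flat 2 and between 168 and 242 CPM in the other 5 libraries. After the length correction 5 matrix genes were lower and 2 higher. TNC, an adhesion-modulating glycoprotein, was higher (0.63 ± 0.34). COL1A1, a fibrillar collagen counted with fibroblast markers, stood at 1071, 847 and 705 CPM against 481, 511 and 554 CPM (-0.74 ± 0.40) and was called lower without flat 2. Of the 8 tested genes in that list of fibroblast, endothelial and blood markers 1 was higher and 2 lower on all 3 shapes. The higher one was TAGLN, an actin-binding protein of smooth muscle and fibroblasts, at 11.8, 8.93 and 10.0 CPM in number 1 and 15.4, 16.5 and 18.5 CPM in number 2 (0.69 ± 0.27), which was called higher without flat 2. The other lower one was the matricellular gene POSTN (-0.07 ± 0.01), at under 0.3 CPM. The summed level of the 14 markers was 1075 to 1535 CPM in number 1 and 866 to 933 CPM in number 2. Without COL1A1 the sum of the other 13 was 370.1 to 496 CPM in number 1 and 355 to 452 CPM in number 2, so the numbers overlapped, and 7 of the 14 stayed under 1 CPM in every library. The part of such cells in these differences was not tested.

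The label of neuroepithelium was checked against markers. SOX2, OTX2, CDH2 and SIX3 were detected at over 100 CPM in all 6 libraries, SOX1, PAX6 and LHX2 at under 8 CPM, and POU5F1 and CDH1 at over 150 CPM. Several defining genes of other fates were near 0: NEUROG1 and SOX17 had no count in the 6 libraries, and PTPRC, HBG1, FOXD3, TP63 and EN1 stayed under 0.1 CPM. Others were detected at low levels in all 6 libraries, the endothelial CDH5 at 2.81 to 3.22 CPM and PECAM1 at 0.967 to 1.91 CPM, the amnion gene VTCN1 at 1.42 to 1.55 CPM and the mesoderm factor TBXT at 0.532 to 1.005 CPM. Higher levels were found for the neural crest factor SOX10, at 14.2, 13.5 and 10.5 CPM in number 1 and 11.8, 8.79 and 8.15 CPM in number 2 (-0.40 ± 0.17), and the keratins KRT8 and KRT18 (0.23 ± 0.11 and 0.33 ± 0.04). Of the non-neural ectoderm and amnion list 2 of 11 tested genes were higher and 3 lower, of the neural crest list 3 and 2 of 10, and of the mesendoderm list 1 and 1 of 8.

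Over all genes averaging at least 5 CPM, 25 were higher and 57 lower by at least 0.5 in each of the 3 pairs, and 0 and 2 by at least 1. ENC1 (ENSG00000171617, chromosome 5, 74627406 to 74641424), an actin-binding protein of the early nervous system, ranked first among higher genes by its smallest difference, with 51.7, 71.5 and 101 CPM in number 1 and 94.7, 182 and 197 CPM in number 2 (1.05 ± 0.25). FJX1, a secreted relative of the planar polarity kinase four-jointed, stood at 59.1, 66.2 and 82.1 CPM against 157, 109 and 139.5 CPM, without overlap (0.96 ± 0.38). MACROH2A1 (ENSG00000113648, chromosome 5, 135333900 to 135399914), a histone variant of repressed chromatin, had even steps from 41.1, 41.2 and 49.1 CPM to 73.8, 71.6 and 78.8 CPM (0.77 ± 0.08). The rest of the 15 genes ranked highest comprised LIX1, ZIC1, FGF8 and IL17RD, described above, the retrotransposon-derived gene RTL5 (0.75 ± 0.07), the sulfotransferase CHST7 (0.78 ± 0.12), the signal peptidase subunit SEC11C (0.73 ± 0.15), the metalloprotease TLL2 (0.81 ± 0.23), the signal recognition particle receptor subunit SRPRB (0.60 ± 0.05), GATD3 (0.69 ± 0.05), LINC01963 (0.91 ± 0.15) and DLGAP1-AS2 (0.65 ± 0.06). GATD3 has a near-identical copy and DLGAP1-AS2 is an antisense transcript, and the strand setting of the counting is not given in the sources used here, so both values are uncertain.

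Among genes lower in number 2, IGFBP5 (ENSG00000115461, chromosome 2, 216672105 to 216695525), a secreted binder of insulin-like growth factors, stood at 651, 662 and 411 CPM in number 1 and at 257, 204 and 213 CPM in number 2, with no overlap and a difference of -1.33 ± 0.37. The steepest difference by this ranking was that of ECEL1P1 (ENSG00000204121, chromosome 2, 232415818 to 232419816), a pseudogene, at 19.4, 32.5 and 12.7 CPM against 4.32, 5.21 and 4.33 CPM (-2.01 ± 0.54). Reads of its parent gene ECEL1 can be counted for it, so this value is uncertain. The Src-family kinase LCK, best known from T cells, stood at 25.2, 16.7 and 15.4 CPM against 13.7, 8.62 and 8.91 CPM (-0.84 ± 0.08). The leukocyte marker PTPRC was under 0.1 CPM in every library. NPTX1 (ENSG00000171246, chromosome 17, 80467148 to 80477843), a neuronal pentraxin, stood at 318, 180.5 and 154 CPM against 82.7, 97.5 and 87.9 CPM (-1.21 ± 0.63), with the libraries numbered 2 close together and flat 1 far above. Complement C3 (-1.17 ± 0.37), the zinc-binding protein YPEL2 (-0.92 ± 0.10), the lipid flippase ATP8B3 (-1.25 ± 0.40), the adhesion molecules LINGO3 (-0.95 ± 0.17) and ICAM5 (-1.07 ± 0.35), the stress gene GADD45G (-1.0 ± 0.33) and the arginine deiminase PADI3 (-0.90 ± 0.14) were also among the 15, and the antisense transcript ENSG00000222012 (-1.10 ± 0.37) carries the same doubt as DLGAP1-AS2. At the other end of the rule, members lay as close to 0 as 0.0002 in 1 pair (HMGB3, convex), and genes just outside it did so by as little as 0.00012 (GRAMD1A, convex).

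The members differed in make-up from the tested genes as a whole, in features that are not independent of the rule. Level was averaged over the same 6 libraries that gave the signs, and transcript length went with the differences of the flat pair. Genes higher in number 2 had a median transcript length of 2105 bases and were protein coding in 77.8% of cases, and genes lower in number 2 had a median of 3217 bases and were protein coding in 71.5%. All tested genes had a median of 2306 bases, and 68.4% were protein coding. The median level was 20.4 CPM for higher, 5.77 CPM for lower and 6.95 CPM for all genes, and GC content was 50.4%, 48.9% and 49.4%. The length trend of the flat pair, given above, moves with this contrast. With the length trend of each library subtracted, 4372 genes were higher (20.5% of 21352 with a length) and 4152 lower (19.4%).

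Lists on which the outlying libraries weigh gave opposite signs between shapes. All 29 ribosomal protein genes were higher in flat 2 than in flat 1 and lower in concave 2 than in concave 1, and 0 had 1 sign on all 3 shapes. Their summed level was 50979 CPM in flat 2 and 19174 to 29215 CPM in the other 5 libraries. Nuclear genes of the respiratory chain had the same layout, with 6227 CPM in flat 2 and 2762 to 3867 CPM elsewhere. The glycolysis and hypoxia genes summed to 9818 CPM in concave 1 and 9522 CPM in flat 2, against 4046 to 6032 CPM in the other 4 libraries. BNIP3, a mitophagy receptor that hypoxia induces, stood at 91.8, 272 and 59.1 CPM in number 1 and at 196, 30.0 and 30.3 CPM in number 2. VEGFA, the angiogenic growth factor, was lower in number 2 on all 3 shapes, from 93.2, 174 and 89.8 CPM to 54.5, 60.6 and 55.1 CPM (-0.99 ± 0.45), as were the glycolytic ALDOA (-0.54 ± 0.30) and NDRG1, which stood at 64.3 CPM in concave 1 and at most 6.75 CPM in the other 5. Without the concave pair, 5 of the 25 genes were higher and 3 lower on both remaining shapes. All genes of the mitochondrial genome together, not only its mRNAs, held 5.70% to 8.0% of counts, with the lowest share in flat 2.

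**Figure D4:**
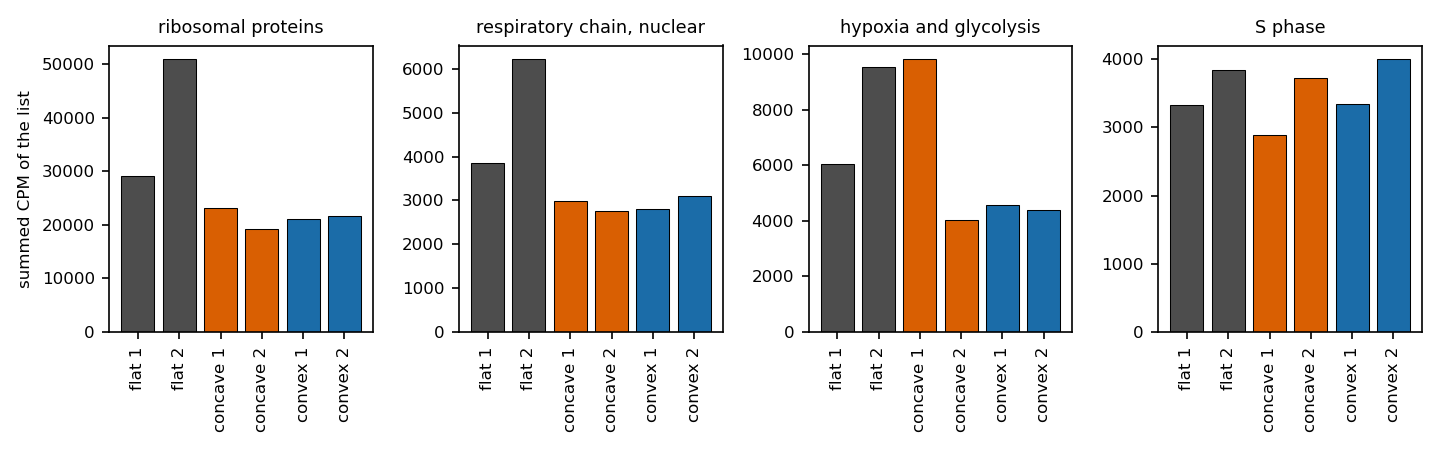
Summed CPM (linear axis from 0) of 4 gene lists in each of the 6 libraries. Flat 2 is the highest bar for ribosomal proteins (50979 CPM) and the nuclear respiratory chain (6227 CPM), concave 1 and flat 2 are the highest for hypoxia and glycolysis, and for S phase each library numbered 2 is above each numbered 1.

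**Figure D5:**
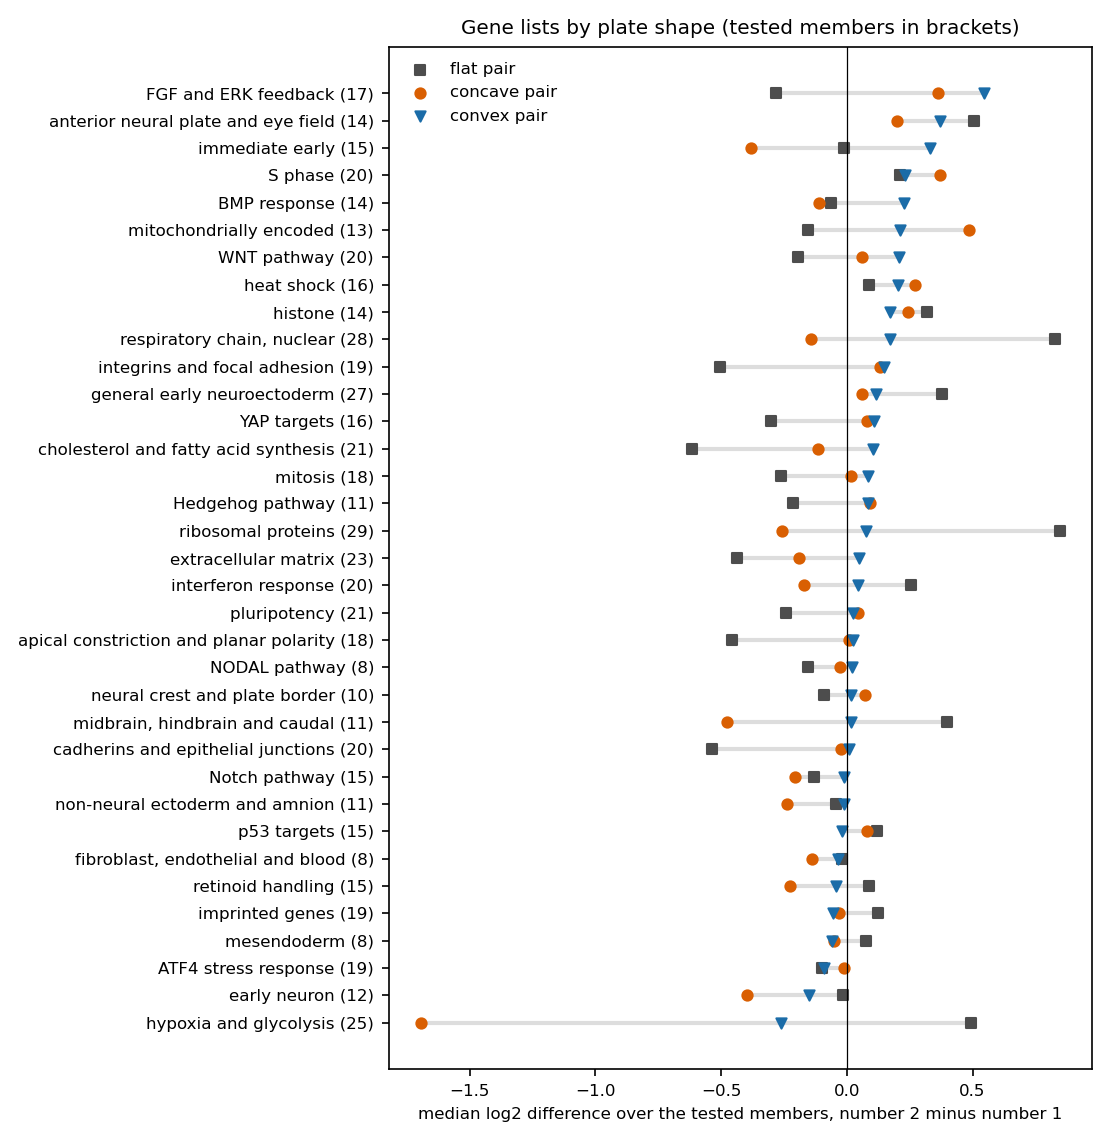
Median log2 difference, number 2 minus number 1, over the tested genes of each of the 35 lists in the flat pair (squares), concave pair (circles) and convex pair (triangles), with a grey line over the range. The 3 symbols lie close together for S phase, histone and heat shock genes. They lie as close for other lists nearer to 0, among them ATF4 stress, p53 target and mesendoderm genes. They lie far apart for hypoxia and glycolysis (0.49, -1.69 and -0.26) and ribosomal proteins (0.85, -0.26 and 0.08).

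The libraries numbered 3, which the comparison did not use, are given beside the others for the main members, with all 9 libraries scaled together. SIX3 averaged 128 CPM in number 1, 181 CPM in number 2 and 33.7 ± 10.2 CPM in number 3 (SD, n = 3). CDH1 averaged 297, 184 and 620.4 ± 21.5 CPM, and CDH2 163, 212 and 105 ± 10.7 CPM. PAX6 averaged 2.62, 6.01 and 1.16 ± 0.128 CPM and LIX1 12.5, 27.3 and 1.70 ± 0.384 CPM. For these 5 genes number 1 lay between number 2 and number 3. Others did not have that order: MCM7 averaged 369.6, 506 and 508 ± 31.7 CPM, DUSP6 1.51, 6.07 and 8.21 ± 2.87 CPM, MACROH2A1 43.1, 72.7 and 71.6 ± 7.72 CPM, and IGFBP5 565, 218 and 259 ± 109 CPM. TDGF1 averaged 1.84, 3.57 and 159 ± 35.0 CPM.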

How the data were processed

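Polyadenylated RNA was sequenced from stranded libraries, per the labels' protocols, and the authors deposited raw counts for each gene. The submitters' processing notes name HISAT2, featureCounts and GRCh38. The sources used here do not give their versions, the annotation release or the strand setting. Of 62710 identifiers, 62639 had a symbol and 58274 were in GENCODE v29, which gave positions and transcript lengths (95.1% of tested genes). The 6 libraries numbered 1 and 2 were used, with 49420082 to 64763412 counts each; intervals for counting error alone would be far narrower than the spread between libraries. In R 4.3.3, genes were kept by filterByExpr and scaled by TMM, and number was tested with edgeR 4.0.16 (quasi-likelihood, robust, two-sided, shape as a block, Benjamini-Hochberg over 22442 genes, threshold 0.05). Differences per shape used log2(CPM + 0.5). Methods were run on simulated counts that had no shape effect, outlying library or length trend. That run cannot show how they behave with these features. DESeq2 1.42.0, limma 3.58.1, other scalings, filters, pseudocounts, a length correction (lowess span 0.3) and each library left out were alternatives.

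The members, the 35 gene lists and the tests were chosen with earlier results of these data known. Genes named were a fixed set, up to 15 per direction averaging at least 5 CPM with the same sign on all 3 shapes, ranked by the smallest of the 3 absolute differences, and up to 4 per list averaging at least 1 CPM; further list members are named to account for the counts, and they were chosen after their values were seen. Not every gene the rule selects is printed, and some items are not reported here.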

Additional observations from a re-analysis of the deposited data

Results flagged for a closer look

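In 5 gene lists the median difference, number 2 minus number 1, had opposite signs in 2 plate shapes, with at least 0.25 on each side. Each shape has only 1 pair, so the difference between shapes was not tested. The ribosomal protein list gave 0.85 in the flat and -0.26 in the concave pair, and the hypoxia and glycolysis list 0.49 in the flat and -1.69 in the concave pair. Genes of FGF and ERK feedback gave 0.54 in the convex and -0.28 in the flat pair. The midbrain, hindbrain and caudal list gave 0.40 in the flat and -0.48 in the concave pair, and immediate early genes 0.33 in the convex and -0.38 in the concave pair.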

How the results depend on the processing

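No paired analysis was possible with the replicate number as the block, because the replicate number is itself what is compared. Numbers 1 and 2 were instead paired within each plate shape, with shape as the block. The number of genes called by edgeR was 0 as reported. It was also 0 with DESeq2 size factors, library size only, upper-quartile factors and a minimum of 1 CPM in 3 libraries. The same held with all 9 libraries, no shape block and thresholds of 0.01 and 0.1. With no filter beyond 1 count edgeR called 92. In place of edgeR, limma voom called 0, DESeq2 139 and limma voom with library quality weights 571. Those weights were 0.328 and 0.360 for the flat libraries and 2.59 and 2.53 for the convex ones. Leaving out 1 library gave 5 to 989 edgeR calls with the shape block and 0 without it, the latter chosen after seeing the data. With signs required on 2 shapes only, 7093 genes were higher and 7151 lower without the flat pair, and 6799 and 6865 without the concave pair. The anterior neural median of 0.46 was 0.30 with no filter beyond 1 count and 0.29 to 0.51 with 1 library left out. Of 182 named genes with 1 sign on all 3 shapes, 175 kept it with DESeq2 size factors, 164 with library size only and 172 with upper-quartile factors. The mean difference changed sign for 1 of them, RARA, with library size only. With 1 pair per shape, differences between shapes have no replicate check.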

Other observations

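ANXA1, which codes for a calcium-dependent membrane-binding protein and was singled out after its values were seen, stood at 0.0174, 0.150 and 0.270 CPM in number 1 (flat, concave, convex) and at 0.724, 2.27 and 4.03 CPM in number 2. It was called by DESeq2 over all 6 libraries and by edgeR without flat 2. With all 9 libraries scaled together, number 3 averaged 3.89 ± 2.73 CPM (SD, n = 3).

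TP53I3, a p53 target that codes for an oxidoreductase, stood at 15.7, 17.3 and 17.9 CPM in number 1 and at 38.0, 24.0 and 27.1 CPM in number 2 (0.77 ± 0.42), while 5 of 15 tested p53 targets were higher and 2 lower on all 3 shapes. With library size alone those counts were 2 and 3. The mitochondrial mRNA MT-ND3 was higher by 0.36 ± 0.02. Imprinted genes gave 4 higher and 4 lower of 19 (2 and 4 with library size alone), with IGF2, a fetal growth factor, lower by a difference of -0.44 ± 0.25.

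All 3 libraries numbered 3 lay above the other 6 for 506 of the 4236 genes higher in number 2 (11.9%) and below them for 345 (8.14%). For the 4398 genes lower in number 2 the counts were 462 (10.5%) and 542 (12.3%), and for all tested genes 2501 (11.1%) and 2942 (13.1%).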
